A study of Arabidopsis thaliana with 4 samples.

Results

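The genes described here are 10 Arabidopsis thaliana genes that respond to darkness, sugar starvation or leaf ageing, of 32627 genes measured. They were chosen by name, as SEN1, DIN2, ASN1 (also called DIN6), DIN10, DIN11, SAG12, SAG13, SAG29, ORE1 and NAP, and their locus codes matched 16 of the 37118 transcript models on the array, with all 10 genes present. The arrays compared 2 samples of a line carrying 35S::JMJ30-HA, which places JMJ30, a histone demethylase gene, with an HA tag under the constitutive 35S promoter, with 2 samples of wild-type Col-0. Both genotypes share the Col-0 background and were whole seedlings raised on soil (22 °C, 16 hours light, 8 hours dark) and taken 13 days after germination. The transgenic line is labelled late flowering and the wild type normally flowering, and the labels give neither the number of transgenic lines behind the samples nor the hour of harvest. The labels call the samples of a genotype biological replicates, numbered 1 and 2, and the design text of the series names independent sets holding both genotypes, so equal numbers are called set 1 and set 2 below.

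A leaf that runs out of sugar, because it is kept dark or is ageing, lowers photosynthesis and starts to break down its own proteins, membranes and chlorophyll. The SnRK1 kinase and the bZIP factors under it act in sugar starvation and switch on DIN (dark inducible) genes, which include enzymes of amino acid and sugar metabolism, while NAC transcription factors such as ORE1 and NAP drive the senescence programme and SAG (senescence-associated) genes are its output. Several DIN genes are also repressed by sugar and follow the day and night cycle.

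Values are normalized intensities on a linear scale, and differences are on the log2 scale with the standard error (SE) of limma. Between the genotypes this SE includes the gap between the sets, since genotype was the only term. The distribution of gene means had a lower mode at 4.29 and an upper mode at 199, with a valley at 13.0 between them, found with a smoothing bandwidth chosen after the values were seen (14.6 with the automatic bandwidth). A gene whose mean lay under this valley in both genotypes is called near background, which describes its level only. The array medians ran from 25.6 to 26.6, and 18025 to 18132 genes per array lay above the valley. JMJ30 (AT3G20810) read 1054 and 721 in the transgenic line, against 705 and 567 in the wild type, both transgenic arrays above both wild-type arrays, with a log2 difference of 0.46 ± 0.27 (SE) that was not called (limma, adjusted p = 1.0). Whether the probes also read the transgene is not known. All 4 markers of green tissue read between 895 and 1783, and all 12 markers of root, flower and seed were near background, with the 4 root markers between 4.01 and 9.44. Having 2 arrays per genotype limits how precise any value here can be.

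No dark, starvation or senescence gene differed between the transgenic line and the wild type at the test's threshold. Of the 10 genes 8 read lower on average in the transgenic line and 2 read higher. The group had a median log2 difference of -0.27, beside a median of -0.0039 and 16579 lower genes (50.8%) over all genes. This median was -0.0662 without transgenic replicate 2, -0.102 without wild-type replicate 1 and -0.122 with 16 added to each value. Among the 8 lower genes, DIN2, SAG12 and SAG29 were near background, where the size of a difference is uncertain. Of the 7 genes above the valley 5 read lower, against 9294 of 18066 genes above the valley. Their median was -0.25, beside -0.0052 over all genes above the valley. Within set 2, 4 of these 7 read lower. limma called 0 of the 10 and 0 of 32627 genes (0.0%) at an adjusted p below 0.05, and at an unadjusted p under 0.05 it passed 0 of the 10 and 974 genes (2.99%). With trend and robust settings of eBayes 1 gene was called, none of the 10. Both transgenic arrays lay below both wild-type arrays at 3 of the 10 genes (SEN1, DIN2 and SAG13), against 13.3% of all genes, and both lay above at 0 of the 10, against 12.7%. The log2 difference was negative in both sets at 5 genes (25.5% of all genes) and positive in both at 1 gene (24.7%), DIN11, whose arrays of set 2 lay under the valley. The other 4 changed sign between the sets, against 16248 of 32627 genes. Some markers of other tissues also read lower in the transgenic line, at levels near background where the size of a difference is uncertain. All 4 seed markers, near background, read lower in the transgenic line (median log2 difference -0.50), 3 of them without overlap (13.3% of all genes). Their summed levels were 16.2 to 17.0 in the transgenic line, against 21.7 to 23.9 in the wild type. The 4 flower markers summed to 20.004 to 21.4 in the transgenic line, against 22.8 to 23.7 in the wild type, and the 4 root markers to 22.3 to 24.1 in the transgenic line, against 21.2 to 23.5 in the wild type. Gene by gene, 3 flower markers read lower and 1 higher, with 0 lower without overlap (13.3% of all genes). The difference changed sign between the sets at 3 of these 4 flower markers. Of the root markers 2 read lower and 2 higher. Of the 4 green tissue markers 2 were lower without overlap (13.3% of all genes), and the other 2 read higher on average. The sums of these 4, 4870 to 5407 in the transgenic line, against 5379 to 5501 in the wild type, overlapped. The part of all these markers in the differences of the 10 genes was not tested. In whole seedlings, fewer cells of a type and less RNA per cell cannot be told apart.

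**Figure D1:**
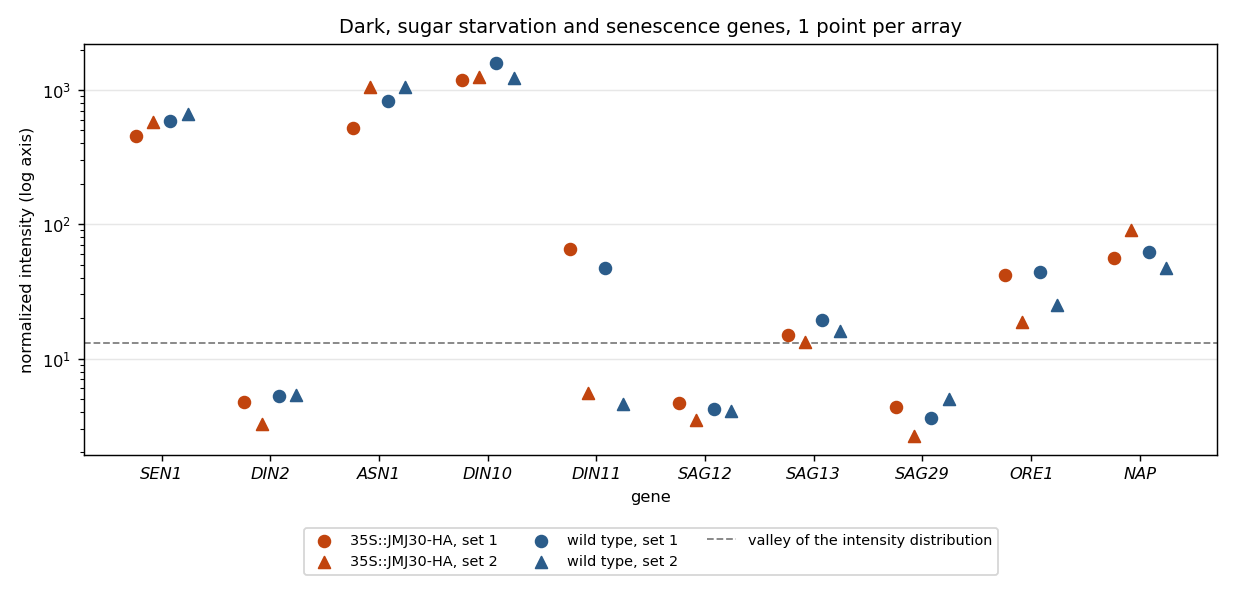
Normalized intensity (log axis) of the 10 genes on each array, with 35S::JMJ30-HA in orange left of wild type in blue, circles for set 1, triangles for set 2, and a dashed line at the valley of 13.0. DIN2, SAG12 and SAG29 lie under the line on all 4 arrays, and DIN11 lies above it in set 1 (65.1 and 47.1) and under it in set 2 (5.58 and 4.58).

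Among the DIN genes, SEN1 (AT4G35770, also DIN1), which encodes a rhodanese-like sulfurtransferase and is an early marker of darkened leaves, read 451 and 578 in the transgenic line, against 591 and 658 in the wild type. Both transgenic arrays were lower than both wild-type arrays. Set 1 gave a log2 difference of -0.39 and set 2 one of -0.19. The mean of -0.29 ± 0.22 (SE), with a 95% interval of -0.84 to 0.26, was not called (limma, adjusted p = 1.0). These values are of transcript model 3, which stands for the gene because its mean was highest. Model 1 read 422 and 605 in the transgenic line, against 752 and 475 in the wild type, and model 2 read 105 and 156 in the transgenic line, against 195 and 120 in the wild type. In those models the transgenic line was lower in set 1, by -0.83 and -0.89 on the log2 scale, and higher in set 2, by 0.35 and 0.38, so the models of SEN1 did not share 1 direction in set 2.

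ASN1 (AT3G47340), the asparagine synthetase that stores nitrogen in asparagine when carbon is short and that light and sugar repress, read 518 and 1045 in the transgenic line, against 832 and 1057 in the wild type. The groups overlapped, because the transgenic array of set 2 lay beside the wild-type array of its set and only the transgenic array of set 1 was low. The mean log2 difference of -0.35 ± 0.38 (SE) came from -0.68 in set 1 and -0.02 in set 2 (95% interval -1.32 to 0.62, limma adjusted p = 1.0). Without transgenic replicate 1 it turned to 0.16, a value that carries the difference between the sets. The same array was lowest in every model of ASN1. Model 2 read 10.3 and 100 in the transgenic line, against 44.5 and 84.5 in the wild type, and model 3 read 95.2 and 247 in the transgenic line, against 180 and 263 in the wild type.

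**Figure D2:**
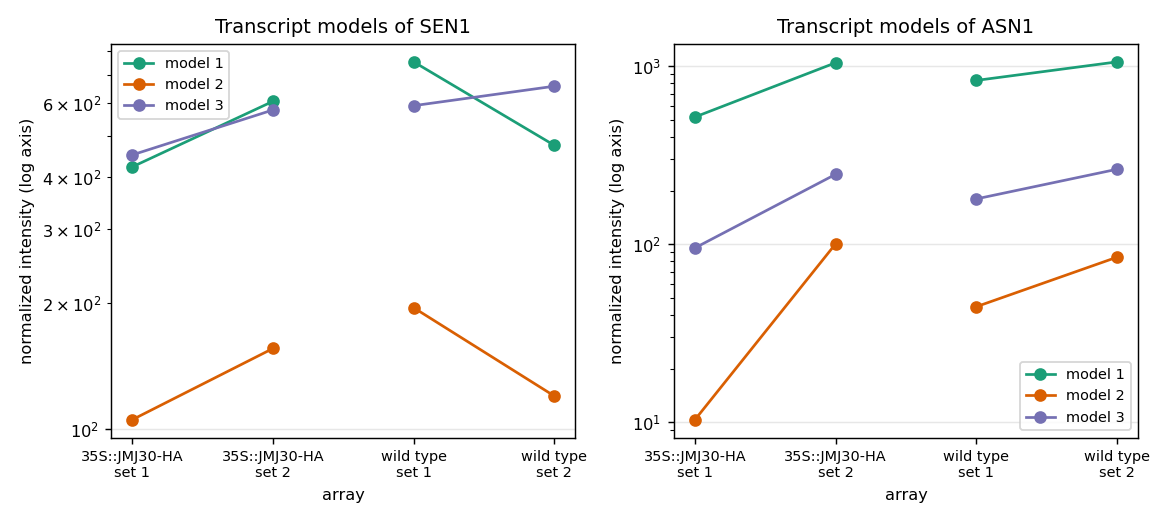
Normalized intensity (log axis) of the 3 transcript models of SEN1 (left) and of ASN1 (right) on each array, 35S::JMJ30-HA left of wild type, with a line joining the arrays of a genotype. Models 1 and 2 of SEN1 read higher in set 2 than in set 1 in the transgenic line and lower in the wild type, model 3 was higher in set 2 in both, and all models of ASN1 were lowest in the transgenic array of set 1 (518, 10.3 and 95.2).

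DIN10 (AT5G20250), of the raffinose synthase family, read 1196 and 1248 in the transgenic line, against 1597 and 1238 in the wild type. Only the wild-type array of set 1 stood above the rest, so the groups overlapped. The log2 difference was -0.42 in set 1 and 0.01 in set 2, -0.20 ± 0.21 (SE) together (limma, adjusted p = 1.0).

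DIN11 (AT3G49620), of the family of oxygenases that use iron and 2-oxoglutarate, read 65.1 and 5.58 in the transgenic line, against 47.1 and 4.58 in the wild type. It read higher in the transgenic line in both sets, by 0.47 and 0.29 on the log2 scale. The 0.29 of set 2 is between arrays under the valley, where the size of a difference is uncertain. With set 2 taken at the valley, set 1 read at least 5.01-fold higher in the transgenic line and at least 3.63-fold higher in the wild type. The genotypes thus overlapped, and the difference of 0.38 ± 1.54 (SE) had a 95% interval from -3.54 to 4.29 (limma, adjusted p = 1.0). DIN2 (AT3G60140), a beta-glucosidase gene, was near background, at 4.71 and 3.27 in the transgenic line, against 5.22 and 5.34 in the wild type. The transgenic arrays were the lower ones, at levels where the size of a difference is uncertain (log2 difference -0.43 ± 0.24).

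**Figure D3:**
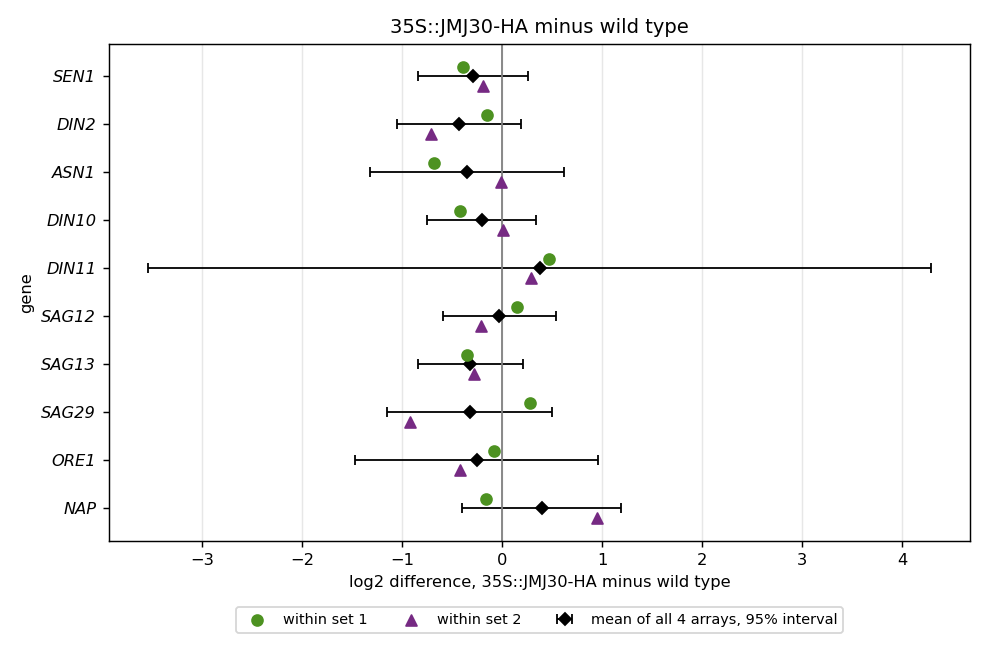
Log2 difference between 35S::JMJ30-HA and wild type for each of the 10 genes, as the mean with the 95% interval of limma (diamonds) and within set 1 (circles) and set 2 (triangles). Every interval spans 0, and NAP has its sets on opposite sides, at -0.16 and 0.95.

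The senescence regulators did not share a direction. NAP (AT1G69490), a NAC transcription factor that promotes leaf senescence, read 55.6 and 91.0 in the transgenic line, against 62.1 and 47.1 in the wild type. The transgenic array of set 2 was the highest of the 4 and the wild-type array of set 2 the lowest, so the difference was -0.16 in set 1 and 0.95 in set 2. Together they gave 0.40 ± 0.31 (SE), with a 95% interval from -0.40 to 1.19 (limma, adjusted p = 1.0).

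ORE1 (AT5G39610), the NAC factor also called NAC092, which the RefSeq table lists as NAC6, read 41.8 and 18.7 in the transgenic line, against 44.3 and 25.1 in the wild type. The arrays of set 1 were the high ones in both genotypes, so the genotypes overlapped. Its log2 difference of -0.25 ± 0.48 (SE) was -0.09 in set 1 and -0.42 in set 2 (limma, adjusted p = 1.0). Without transgenic replicate 2 it turned to 0.32, a value that carries the difference between the sets.

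The senescence output genes lay near or under the valley. SAG12 (AT5G45890), the cysteine protease gene that marks late, age-dependent senescence, was near background on all arrays, at 4.67 and 3.50 in the transgenic line, against 4.21 and 4.03 in the wild type. SAG29 (AT5G13170), a sugar transporter of the SWEET family also called SWEET15, was near background too, at 4.34 and 2.65 in the transgenic line, against 3.59 and 5.01 in the wild type. SAG13 (AT2G29350), a short-chain dehydrogenase gene that is active early in senescence, read 15.1 and 13.3 in the transgenic line, against 19.3 and 16.1 in the wild type.

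All 4 arrays of SAG13 lay above the valley at 13.0, and 3 of the 4 above the valley of the automatic bandwidth, with both transgenic arrays below both wild-type arrays. Both sets gave a like log2 difference, -0.36 (set 1) and -0.28 (set 2), and their mean was -0.32 ± 0.21 (SE, 95% interval -0.84 to 0.21, limma adjusted p = 1.0). The other models of SAG13 were near background, with log2 differences of 0.05 and -0.0033.

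Between the sets, with genotype as a further term, DIN11 and ORE1 read higher in set 1 and ASN1 lower in set 1, in both genotypes. limma called 4 of 32627 genes (0.0123%) and 0 of the 10, while at an unadjusted p under 0.05 it passed 3 of the 10 (DIN11, ORE1 and ASN1) and 5044 genes (15.5%). Both arrays of set 1 lay above both of set 2 at 3 of the 10 genes (DIN11, SAG12 and ORE1), against 23.2% of all genes, and below at 1 (ASN1), against 25.5%, so the counts lie near the shares of all genes. SAG12 was near background on all arrays, where the size of a difference is uncertain. The median log2 difference of the 10 was 0.19, beside -0.0091 over all genes, as set 1 minus set 2. What the sets shared is not stated in the labels, and whether hour of harvest, growth or array handling differed between them was not tested.

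DIN11 had the widest gap. It read 65.1 (transgenic) and 47.1 (wild type) in set 1, against 5.58 (transgenic) and 4.58 (wild type) in set 2. Both arrays of set 1 were far above both of set 2, and the arrays of set 2 were under the valley. The log2 difference was 3.45 ± 0.17 (SE), 3.54 in the transgenic line and 3.36 in the wild type, with a 95% interval from 3.01 to 3.90, and it did not pass the test (limma, adjusted p = 0.0655). With the arrays of set 2 taken at the valley it was at least 4.27-fold higher in set 1, or at least 3.78-fold with the valley of the automatic bandwidth. By absolute moderated t DIN11 stood at rank 5 of all genes, directly after the 4 called genes, TAT3, FAMT, PCC1 and AT3G22235, which are named here after their values were seen. It was called where 16 was added to each value (limma, adjusted p = 0.00324), a setting that called 1847 of 32627 genes (5.66%). Its mean passes the filter on genes under the valley only through the arrays of set 1, so its call after that filter carries no weight.

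ORE1 read 41.8 (transgenic) and 44.3 (wild type) in set 1, against 18.7 (transgenic) and 25.1 (wild type) in set 2. The sets did not overlap, and set 1 was higher by 0.99 ± 0.18 (SE) on the log2 scale, 1.16 in the transgenic line and 0.82 in the wild type, with a 95% interval from 0.51 to 1.47. It did not pass the test over all genes (limma, adjusted p = 0.16), and it was called without genes under the valley (adjusted p = 0.0132), where 1702 of 18066 genes (9.42%) were called, with 16 added (adjusted p = 0.022) and with trend and robust settings (adjusted p = 0.00172), where 3553 genes (10.9%) were called. NAP, the other NAC factor, did not share this pattern. It read 55.6 (transgenic) and 62.1 (wild type) in set 1, against 91.0 (transgenic) and 47.1 (wild type) in set 2, and set 1 was lower in the transgenic line (-0.71) and higher in the wild type (0.40).

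ASN1 read 518 (transgenic) and 832 (wild type) in set 1, against 1045 (transgenic) and 1057 (wild type) in set 2. Set 1 was lower in both genotypes, with log2 differences of -1.01 in the transgenic line and -0.35 in the wild type. The mean was -0.68 ± 0.23 (SE), with a 95% interval from -1.27 to -0.09 (limma, adjusted p = 0.281). ASN1 was called with trend and robust settings (adjusted p = 8.1e-08) and not under the other alternatives. The remaining genes had log2 differences between -0.26 (SEN1) and 0.25 (DIN2), with limma adjusted p from 0.534 to 0.898.

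**Figure D4:**
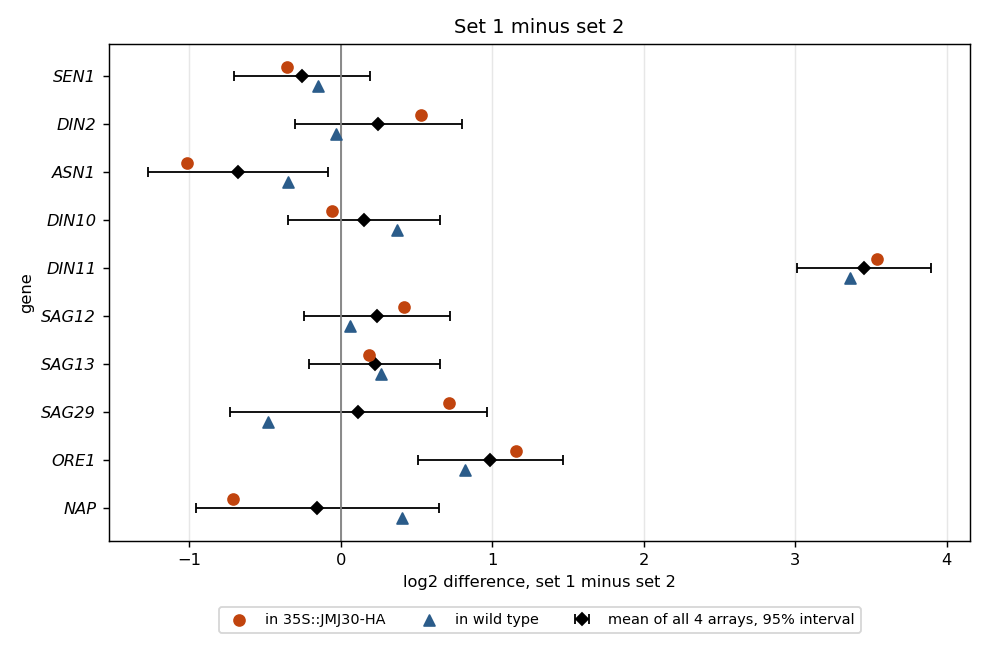
Log2 difference between set 1 and set 2 for each of the 10 genes, as the mean with the 95% interval of limma fitted with genotype (diamonds) and within 35S::JMJ30-HA (circles) and wild type (triangles). DIN11 (3.45) and ORE1 (0.99) lie above 0 and ASN1 (-0.68) below it with their whole interval.

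The genes nearest in pattern were sought for the 7 genes whose mean exceeded the valley, by the distance between log2 values centred on each gene's mean over the 4 arrays, among 18065 other genes above the valley. With so few arrays many genes share a flat pattern, and 1202 genes lay within a distance of 0.25 of SEN1, 1776 of DIN10 and 1077 of SAG13, whose nearest genes were NPX1, SK32 and NRPB9B. ASN1 had 96 such genes, the nearest being PRE1 (distance 0.049), a small helix-loop-helix gene that read 16.7 and 33.1 in the transgenic line, against 25.6 and 33.3 in the wild type. ORE1 had 62, the nearest being AT2G32160 (distance 0.061), and NAP 13, the nearest being AT4G28020 (distance 0.083). DIN11 had 0 such genes. The distance keeps the size of a difference, so a gene with a wide gap has few genes near it. The 0 therefore says nothing further about its pattern. The gene nearest to DIN11 was AACT1, an acyltransferase gene, at a distance of 0.49. AACT1 read 104 and 5.79 in the transgenic line, against 51.1 and 5.37 in the wild type. Both DIN11 and AACT1 were under the valley in set 2 and pass the filter only through the arrays of set 1.

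Other genes of the pathway were taken from 7 lists with 127 entries, of which 125 had a value. BZIP1 and BZIP11 had none in the table used here. None was called between the genotypes or between the sets. At an unadjusted p under 0.05, limma passed 3 of the 125 between the genotypes (2.99% of all genes) and 38 between the sets (15.5% of all genes). The median log2 difference between the transgenic line and the wild type was -0.04, with 77 genes lower and 48 higher. Over all genes 50.8% read lower, the share to set beside the counts of each list below. Both transgenic arrays lay below both wild-type arrays at 18 of the 125 genes, against 13.3% of all genes, and above at 3, against 12.7%.

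Of 24 other genes of darkness and sugar starvation 17 read lower in the transgenic line (50.8% of all genes) and 7 read higher (median -0.09). BXL1, a beta-xylosidase of the cell wall that sugar represses, read 383 and 408 in the transgenic line, against 562 and 624 in the wild type. Both transgenic arrays were lower, by -0.56 in set 1 and -0.61 in set 2, the mean being -0.58 ± 0.19 (SE), without passing the test (limma, adjusted p = 1.0). BCAT2, an aminotransferase of branched-chain amino acid breakdown, read 63.2 and 56.0 in the transgenic line, against 105 and 62.8 in the wild type. The trehalose-phosphate synthase family members TPS10 and TPS5 separated the sets in opposite directions, TPS10 at 320 (transgenic) and 327 (wild type) in set 1, against 228 (transgenic) and 219 (wild type) in set 2, and TPS5 at 216 (transgenic) and 194 (wild type) in set 1, against 302 (transgenic) and 281 (wild type) in set 2.

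The 7 genes of SnRK1 and its bZIP factors had a median log2 difference of 0.02 between the genotypes, 4 higher and 3 lower in the transgenic line. AKINBETA1, a regulatory subunit of SnRK1, read 484 (transgenic) and 563 (wild type) in set 1, against 295 (transgenic) and 322 (wild type) in set 2, a log2 difference of 0.76 ± 0.17 (limma, adjusted p = 0.19). BZIP63, a factor that SnRK1 phosphorylates, read 171 and 130 in the transgenic line, against 272 and 134 in the wild type, so that the wild-type array of set 1 was the high one. KIN11, a catalytic subunit, read 164 and 152 in the transgenic line, against 166 and 174 in the wild type.

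Autophagy genes, whose products enclose cell contents for breakdown in the vacuole, had a median of 0.02 between the genotypes and of 0.42 between the sets. Of 12 genes 9 were higher in set 1, against 15909 of 32627 genes. At 8 of these 9 the sets did not overlap (23.2% of all genes). ATG8E, which encodes a ubiquitin-like protein of the autophagosome membrane, read 157 (transgenic) and 137 (wild type) in set 1, against 53.1 (transgenic) and 50.8 (wild type) in set 2. Its log2 difference was 1.50 ± 0.17 (limma, adjusted p = 0.0929). ATG8H read 49.0 (transgenic) and 50.2 (wild type) in set 1, against 25.4 (transgenic) and 29.1 (wild type) in set 2. ATG8A read 158 and 122 in the transgenic line, against 185 and 125 in the wild type, so the genotypes overlapped. ATG7, the enzyme that activates ATG8 proteins, went the other way, at 88.9 (transgenic) and 93.7 (wild type) in set 1, against 95.05 (transgenic) and 114 (wild type) in set 2.

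**Figure D5:**
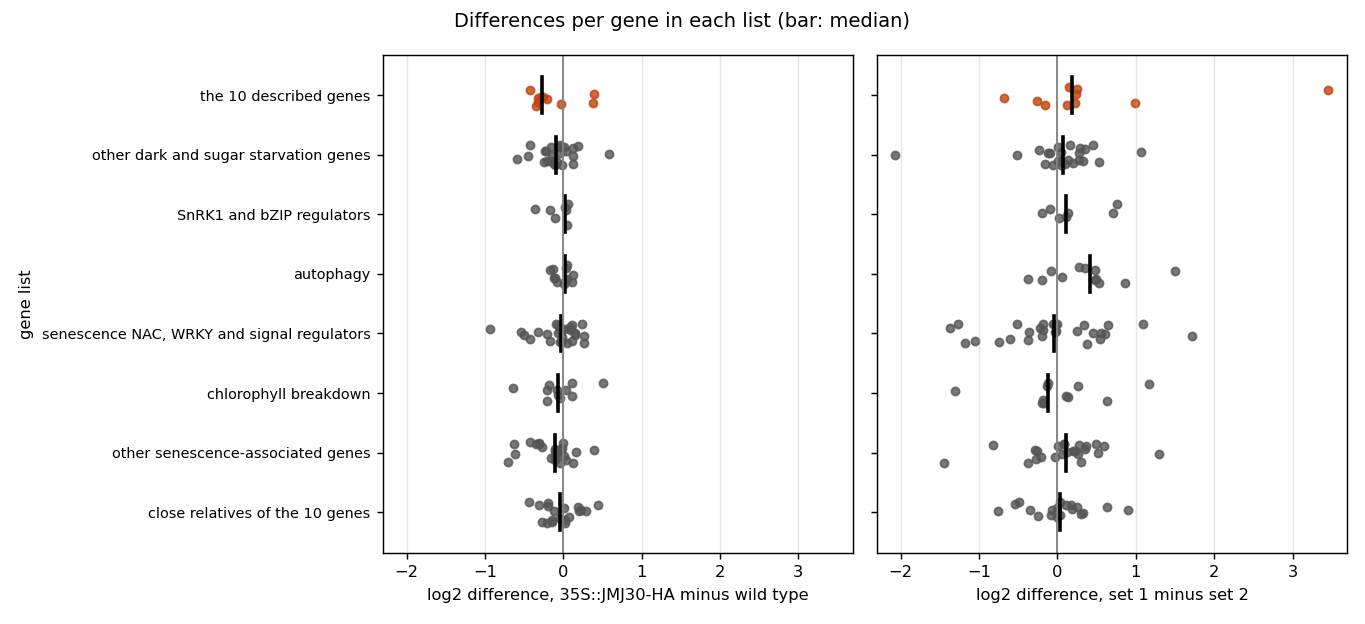
Log2 difference per gene (points) with the median of the list (bar), as 35S::JMJ30-HA minus wild type (left) and set 1 minus set 2 (right), for the 10 described genes in orange and the 7 lists of other genes in grey. The medians on the left run from -0.27 to 0.02, and on the right autophagy has the highest, 0.42.

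Among 28 NAC, WRKY and signal regulators of senescence 16 read lower and 12 read higher in the transgenic line (median -0.02), and 12 passed an unadjusted p under 0.05 between the sets (15.5% of all genes). WRKY54, a negative regulator of senescence, read 47.5 (transgenic) and 61.9 (wild type) in set 1, against 13.0 (transgenic) and 21.1 (wild type) in set 2, the same direction as ORE1. NAC032 went the other way, at 26.8 (transgenic) and 33.7 (wild type) in set 1, against 77.1 (transgenic) and 78.1 (wild type) in set 2. Its relative ATAF1, chosen after its values were seen, did so too, at 73.6 (transgenic) and 78.4 (wild type) in set 1, against 174 (transgenic) and 170 (wild type) in set 2. NAC055 had the largest absolute moderated t between the genotypes among the genes of this list above the valley, at 21.5 and 47.2 in the transgenic line, against 88.7 and 41.9 in the wild type, a log2 difference of -2.05 within set 1 but 0.17 within set 2. EIL1, of the ethylene response, read 419 and 349 in the transgenic line, against 366 and 276 in the wild type.

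Chlorophyll breakdown genes split 7 lower and 4 higher in the transgenic line (median -0.06). CLH1, a chlorophyllase gene, read 801 (transgenic) and 964 (wild type) in set 1, against 372 (transgenic) and 412 (wild type) in set 2, and PPH, which encodes the enzyme that removes phytol from pheophytin, read 466 (transgenic) and 406 (wild type) in set 1, against 282 (transgenic) and 278 (wild type) in set 2. RCCR, a reductase of chlorophyll catabolites, read 365 and 314 in the transgenic line, against 392 and 391 in the wild type. NOL, a chlorophyll b reductase, read 208 and 183 in the transgenic line, against 182 and 268 in the wild type.

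In the transgenic line 19 of 24 other senescence-associated genes read lower (50.8% of all genes) and 5 higher (median -0.10). Of the 24, 7 were near background, where the size of a difference is uncertain. AALP, a vacuolar protease gene, read 937 and 779 in the transgenic line, against 1051 and 1068 in the wild type, both transgenic arrays being lower. SAG14, a blue copper protein gene, read 19.4 and 35.97 in the transgenic line, against 31.1 and 52.9 in the wild type, lower in both sets by -0.68 and -0.56. Between the sets, SAG21 read 126 (transgenic) and 138 (wild type) in set 1, against 50.3 (transgenic) and 57.1 (wild type) in set 2, and PAP17, an acid phosphatase gene, read 22.4 (transgenic) and 20.4 (wild type) in set 1, against 46.1 (transgenic) and 73.6 (wild type) in set 2. None of these passed the test (limma, adjusted p of at least 0.115 between the sets).

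Of 19 close relatives of the 10 genes 10 read lower and 9 higher in the transgenic line (median -0.04). The asparagine synthetase ASN2 read 575 and 478 in the transgenic line, against 429 and 494 in the wild type, so the transgenic array of set 1, the lowest at ASN1, was the highest at ASN2. ASN3 read 254 and 262 in the transgenic line, against 285 and 309 in the wild type. The neighbour of DIN11 in the locus order, AT3G49630, chosen after its values were seen, was near background, at 3.84 and 3.30 in the transgenic line, against 5.05 and 4.58 in the wild type, with a log2 difference between the sets of 0.18. Of the raffinose synthase family, RS2 read 352 (transgenic) and 500 (wild type) in set 1, against 242 (transgenic) and 208 (wild type) in set 2, and RS5 read 94.4 (transgenic) and 138 (wild type) in set 1, against 192 (transgenic) and 193 (wild type) in set 2. The neighbours of SAG13, AT2G29340 and AT2G29360, were chosen after their values were seen. AT2G29340 read 196 and 177 in the transgenic line, against 173 and 194 in the wild type, and AT2G29360 read 185 and 297 in the transgenic line, against 194 and 257 in the wild type.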

How the data were processed

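Total RNA from whole seedlings was measured on 4 one-colour NimbleGen arrays labelled with Cy3, per the labels. The authors deposited normalized intensity values, 1 per transcript model, and the submitters' processing notes name RMA (background correction, normalization between arrays, probe summary) without version or settings. The values run from 1.50 to 4400, which is a linear scale, and log2 was taken without a pseudocount, since 0 values lay at or below 0. They hold no detection call. The valley between low and high genes was read from a Gaussian kernel density of the gene means with a bandwidth factor of 0.075. That factor was chosen after seeing the data and with the valley of an earlier analysis of these data in view, so that both lay close together. The automatic bandwidth (factor 0.125) put the valley at 14.6 with 17729 genes above it, in place of 18066, changed the near-background label of 0 of the 10 genes, 2 of the other listed genes and 341 of all genes, and left the named genes as they were. The transcript model with the highest mean log2 value stood for each of 32627 genes. No label or header names a genome build. Gene symbols came from the RefSeq table of assembly TAIR10.1, which held 31993 of the loci (98.1%), and coordinates were left out.

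The transgenic line was set against the wild type by limma 3.58.1 (R 4.3.3, functions lmFit and eBayes, two-sided, Benjamini-Hochberg adjustment over all genes) with genotype as the only term. Sets were compared in the same way with genotype as a further term. The fitting script was tested on simulated data. Plots used matplotlib 3.10.9. The series' design text names independent sets that hold both genotypes, which was read as tying equal replicate numbers together. Deviations from the genotype means correlated between same-numbered arrays at 0.42 over all genes and 0.68 over the genes above the valley.

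The 10 genes and the lists of other genes were chosen with earlier results of these data known. All 10 genes and JMJ30 were named. In each list of other genes the called members were to be named, or, where none was called, the 2 with the largest absolute moderated t per comparison among those above the valley. For each of the 10 genes above the valley the gene nearest in pattern was named. Genes outside this rule are marked. A planned search for promoter motifs was not run, since it needs sequences not used here. Alternatives changed the replicate block, the choice of transcript model, the offset, the normalization, the filter on low values, the eBayes settings, the threshold and the arrays included.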

Additional observations from a re-analysis of the deposited data

Results flagged for a closer look

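The genotype difference took opposite signs in the sets at 2 of the 7 genes whose mean exceeded the valley, against 9156 of the 18066 genes above the valley. NAP read -0.16 in set 1 and 0.95 in set 2 as log2 of the transgenic line minus the wild type, a gap of -1.11 between the sets. DIN10 read -0.42 in set 1 and 0.01 in set 2, a gap of -0.43. Its arrays of set 2 lay close together, at 1248 (transgenic) and 1238 (wild type). With 1 array of each genotype per set, the difference between the sets was not tested.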

How the results depend on the processing

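Between the genotypes 0 genes were called in the main comparison and under the alternatives, except 1 gene where eBayes used trend and robust options, 1 at a threshold of 0.10 on the adjusted p and 72 at an unadjusted p under 0.05 with a 2-fold difference. Leaving out each array gave 0 to 0. The replicate block gave 0 calls, with 1961 genes at an unadjusted p under 0.05, and changed no call of the 10 genes. At DIN11 it narrowed the 95% interval to between -0.07 and 0.82, and the SE from 1.54 to 0.17. The SE fell from 0.48 to 0.18 at ORE1 and from 0.38 to 0.23 at ASN1, and stayed near 0.31 at NAP and 0.32 at SAG29. The median genotype difference of the 10 genes (-0.27) was -0.12 with 16 added, -0.23 from the mean of all models, and -0.324 to -0.0662 when arrays were left out singly. Of the values of single genes under an alternative 9 changed sign, none of them called, and 105 did not. Leaving out single arrays gave -0.856 to 0.157 for ASN1 (the highest without transgenic replicate 1), -1.40 to 2.15 for DIN11 (negative without transgenic replicate 1, and -1.31 without wild-type replicate 2), -0.832 to 0.324 for ORE1 (0.324 without transgenic replicate 2 and 0.155 without wild-type replicate 1), -0.237 to 0.181 for SAG12 (0.181 without transgenic replicate 2 and 0.0028 without wild-type replicate 1) and -0.68 to 0.033 for SAG29 (0.033 without transgenic replicate 2). Median centring turned SAG12 to 0.00092. Without an array 1 set holds 1 genotype, so such values include the gap between the sets.

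Between the sets 4 genes were called, against 1702 without genes under the valley, 1858 with the valley of the automatic bandwidth (an alternative added after seeing the data, which called 0 genes between the genotypes and, of the 10 genes, ORE1 between the sets, and DIN11, whose mean passes either filter only through set 1), 1847 with 16 added, 3553 with trend and robust settings, 87 with replicate number as the only term, 0 from the mean of all models, 0 with quantile normalization and 0 to 0 when arrays were left out singly. The cause was not tested. DIN11 was also called with replicate number as the only term (limma, adjusted p = 0.0348, and 3.9e-25 to 0.086 over the alternatives that kept every array). Over those alternatives the limma adjusted p ran from 0.00172 to 0.175 for ORE1 and from 8.1e-08 to 0.303 for ASN1. The median of the 10 genes (0.19) was 0.048 with 16 added and 0.109 to 0.353 when arrays were left out singly. Leaving out single arrays gave -0.107 to 0.60 for DIN2 (negative without transgenic replicate 2), -0.0554 to 0.361 for DIN10 (negative without wild-type replicate 1), -0.345 to 0.576 for SAG29 (negative without transgenic replicate 2, and -0.021 without transgenic replicate 1) and -0.63 to 0.321 for NAP (positive without transgenic replicate 2). Without an array 1 set holds 1 genotype, and the fit had no genotype term. Such counts and values therefore include the gap between the genotypes. Differences of genes under the valley have an uncertain size.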
